A study of Rattus norvegicus with 18 samples.

Results

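The Rab family of the rat hippocampus was followed across 3 diets and 2 training states on 18 Affymetrix arrays. Its members are the genes whose platform symbol is Rab followed by a digit, together with genes whose symbols start with Rabgap, Rabac, Rabep, Rabif or Rabggt. Rab3a was left out by that rule. The rule found 57 genes among 10411 genes with a symbol of their own, measured by 77 probe sets. A gene was represented by its probe set with the highest mean level, called its first probe set here, and the 20 further probe sets of 17 genes are described separately. A filter on the mean level over all 18 arrays kept 47 of the 57 genes for testing. The 10 genes under it were Rab3c, Rab3il1, Rab3ip, Rab23, Rab25, Rab27a, Rab27b, Rab39a, Rabep2 and Rabggta. Rab3gap1 is not analysed here.

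Rab proteins are small GTPases that act as switches of membrane traffic. An exchange factor loads a Rab with GTP on the membrane it marks, the loaded Rab recruits tethers, motors and sorting proteins, and a GTPase-activating protein turns it off again, while a prenyl anchor and escort proteins carry it between membrane and cytosol. In neurons of the hippocampus the family is known for receptor uptake into early endosomes, for the return of receptors to the dendrite surface through recycling endosomes, for the supply of new membrane from the Golgi and for transmitter release.

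The study asks about learning disabilities after alcohol exposure of the fetus. Each sample was total RNA of rat hippocampus from an alcohol, an isocaloric or a control diet, and animals were either naive or had CFC training, an abbreviation that the labels do not spell out. Of the 8 alcohol arrays 4 were from trained and 4 from naive animals, of the 6 isocaloric arrays 4 and 2, and of the 4 control arrays 2 and 2. The alcohol and isocaloric groups differ from the control groups in diet. Strain, sex, age, dose and time after training are not given in the sources used here. Nothing in the labels says that replicates of a group came from separate animals or litters. A p-value here therefore sets a difference only against the scatter of these samples, and some of that scatter may be technical.

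Levels are given as log2 of the deposited intensity plus 6.06, and a difference of 1 on this scale is a doubling for bright probe sets and understates the change of dim ones. Levels of different probe sets cannot be set against each other. Total signal per array ran from 2919033 to 3134075, and arrays of 1 group correlated at 0.965 to 0.982. All 8 neuron markers and all 4 measured markers of hippocampal excitatory neurons passed the filter, and none of these 12 was called in any comparison of diets or training. Ttr, which marks choroid plexus, lay between 12.53 and 12.84 on 4 arrays (alcohol trained 4, isocaloric trained 3, alcohol naive 2 and control trained 1), against 6.10 to 9.57 on the others. In whole-tissue RNA, fewer cells of a type and less RNA per cell cannot be told apart.

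The promoters of the Rab5 isoforms are shown, and those of Rab11b and Rab20, which had the largest called changes among the other genes. The first probe sets of Rab5a and Rab5b were not called in any comparison of diets. Promoters were taken from RefSeq on the rat build GRCr8, where 47 of the 57 genes matched an entry and Rab1b, Rab2a, Rab2b, Rab11fip4, Rab22a, Rab23, Rab24, Rab26, Rab38 and Rabep1 did not. The 150 bases before the start of transcription are printed 5′ to 3′ on the strand of the gene, with matches to 2 common promoter motifs in capitals. GGGCGG (or CCGCCC, the other strand) is the GC box bound by Sp1-type factors, and CCAAT (or ATTGG) is the box bound by NF-Y.
Rab5a: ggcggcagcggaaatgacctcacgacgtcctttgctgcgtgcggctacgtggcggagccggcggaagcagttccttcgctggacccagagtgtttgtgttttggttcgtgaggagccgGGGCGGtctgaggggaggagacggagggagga
Rab5b: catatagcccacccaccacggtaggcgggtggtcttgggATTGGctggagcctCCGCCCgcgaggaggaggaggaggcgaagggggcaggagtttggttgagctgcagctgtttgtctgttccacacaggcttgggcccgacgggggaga
Rab5c: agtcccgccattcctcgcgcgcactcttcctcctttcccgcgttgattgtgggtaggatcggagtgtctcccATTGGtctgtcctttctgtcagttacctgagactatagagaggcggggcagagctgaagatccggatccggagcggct
Rab11b: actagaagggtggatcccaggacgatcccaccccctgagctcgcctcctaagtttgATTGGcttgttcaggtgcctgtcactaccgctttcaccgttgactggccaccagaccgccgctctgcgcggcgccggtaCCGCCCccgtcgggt
Rab20: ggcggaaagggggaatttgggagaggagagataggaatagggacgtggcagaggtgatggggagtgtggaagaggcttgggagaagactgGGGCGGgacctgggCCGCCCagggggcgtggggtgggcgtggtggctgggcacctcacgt
In the order printed, these windows are chr9:6720977-6721126 on the plus strand, chr7:1712737-1712886 on the minus strand, chr10:86166450-86166599 on the minus strand, chr7:15236755-15236904 on the minus strand and chr16:84721277-84721426 on the plus strand. The Rab5 isoforms differ here: Rab5a holds 1 GC box 32 bases before the start, Rab5b a CCAAT box and a GC box 111 and 97 bases before it, and Rab5c a CCAAT box 78 bases before it and no GC box of these letters. Rab11b, which rose with alcohol, holds a CCAAT box and a GC box, and Rab20, which fell, holds 2 GC boxes.

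The GC box stood in 31 of the 47 promoters of the family (66.0%), in 49.8% of the promoters of 8630 genes on the array and in 26.0% of all 33469 rat promoters of the same length. The CCAAT box was in 12 of 47 (25.5%), beside 26.0% of genes on the array. The E-box CACGTG was in 2 of 47 (4.26%, against 5.49% of genes on the array), the cAMP response element TGACGTCA in 2 (4.26% against 2.20%), the NRF1 core GCGCATGC in 1 (2.13% against 3.02%) and the TATA box TATAAA in 1 (2.13% against 5.49%). Both strands were searched, and no motif contains another. Base composition moved with the GC box: the median GC content was 67.3% in the family, 62.7% in genes on the array and 52.7% in all promoters, with medians of 13, 11 and 4 CpG dinucleotides. Its part in the share of GC boxes was not tested, and a match is a description of letters, not of a bound site.

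Between diets, members of the family were called higher as well as lower, and the median of the family stayed near 0. Between alcohol and control, 11 of 47 tested members were called (23.4%, where 19.9% of all 9520 tested probe sets were called), 5 higher and 6 lower with alcohol. Between alcohol and isocaloric, 5 of 47 were called (10.6%, background 3.06%), 4 higher and 1 lower with alcohol. Between isocaloric and control it was 1 of 47 (2.13%, background 7.05%), which was lower. At an unadjusted p under 0.05 the members numbered 17, 13 and 10 of 47 in these 3 comparisons. The median difference of the 47 members was -0.00 for alcohol minus control, 0.00 for alcohol minus isocaloric and -0.00 for isocaloric minus control, beside -0.00, -0.02 and 0.02 over all tested probe sets. The share against control lies near the background, so the members are described below one by one. Both comparisons with control use the same 4 control arrays, and their results are therefore not independent of each other.

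**Figure D1:**
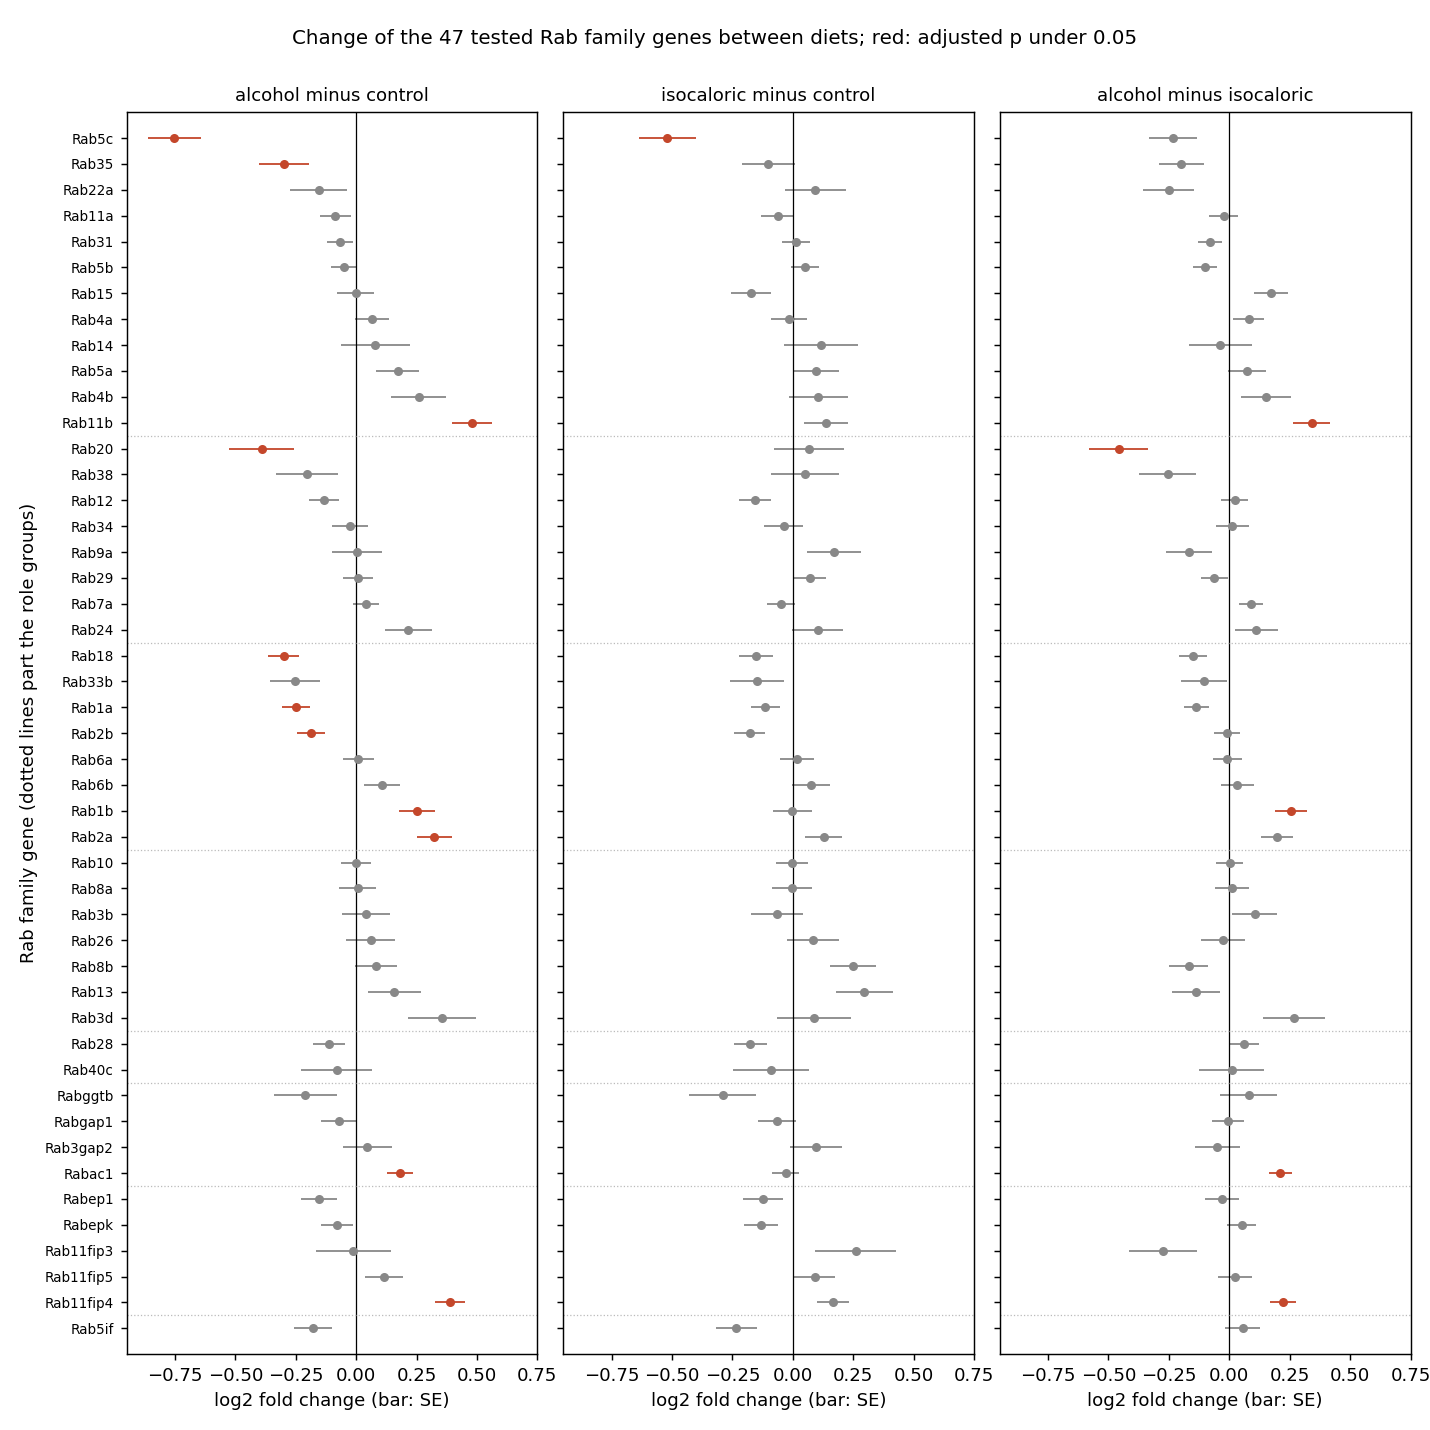
Log2 fold change (x axis, bars are SE) of each of the 47 tested genes (y axis, grouped by role) in 3 comparisons of diets, red where the adjusted p was under 0.05. Rab5c lies furthest left against control, at -0.75 with alcohol and -0.52 with the isocaloric diet, and Rab11b furthest right with alcohol, at 0.48.

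The counts rest on few arrays, above all those of the small groups. For alcohol minus control, the count fell to 5 without control naive 2 and to 6 without either control trained array. For alcohol minus isocaloric, it was 0 without alcohol naive 3 or either isocaloric naive array, 2 without alcohol trained 3, isocaloric trained 3, isocaloric trained 4 or alcohol naive 2, and 3 without alcohol trained 2, isocaloric trained 1, alcohol naive 4 or either control trained array. For isocaloric minus control, it was 0 without either isocaloric naive array, control naive 2 or control trained 2, and 7 without control naive 1. Leaving out the 4 arrays high in Ttr together left 4, 0 and 0 calls in these comparisons, the 4 being Rab5c, Rab11fip4, Rab11b and Rab18. With the Gapdh 3′ to 5′ ratio as a covariate the 5 calls between alcohol and isocaloric were lost, and calls over all probe sets went from 291 to 25. Over all probe sets, fewer were also called in each fit above with arrays left out. The exceptions, with more calls, were alcohol minus isocaloric without alcohol naive 4 and isocaloric minus control without control naive 1. Against control, array weights ended the calls of Rabac1, Rab1b, Rab2b, Rab20 and Rab35, and calls over all probe sets went from 1895 to 979. Markers of other cells and signs of RNA quality also moved with diet. The summed intensity of the 8 measured endothelial and mural cell markers, none of them at 0, was 897 to 1107 on alcohol arrays, 905 to 1024 on isocaloric arrays and 555 to 637 on control arrays, and all 5 tested were called higher with either diet than with control. The log2 ratio of the 3′ to the 5′ hexokinase control probe sets, a sign of RNA quality, was 0.714 to 1.33, 0.932 to 1.26 and 1.25 to 1.68 in the same order, and that of the actin probe sets 0.187 to 0.669, 0.318 to 0.506 and 0.540 to 0.731. The summed intensity of the 2 measured blood markers, neither at 0, was 520 to 1074, 629 to 1050 and 934 to 1362, and the 1 tested was called lower with either diet than with control, at -0.56 and -0.50. The part of these measures in the comparisons with control was not tested.

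Among the genes of the early endosome and of recycling, 3 of 12 were called between alcohol and control (25%, background 19.9%). The largest change of the family was in Rab5c, a GTPase of the early endosome that drives its fusion and the uptake of surface receptors. Rab5c stood at 8.01 and 8.29 in the control naive arrays and at 8.06 and 8.27 in the control trained arrays. The isocaloric arrays ran from 7.44 to 7.73 with a median of 7.66, and the alcohol arrays from 7.09 to 7.77 with a median of 7.44. All 4 control arrays thus lay above all 14 others, while the alcohol and isocaloric ranges overlapped. The alcohol minus control difference was -0.75 (SE 0.11, adjusted p = 0.000312), 1.68-fold lower, with 8 of 8 alcohol arrays below the control mean. Isocaloric minus control was -0.52 (SE 0.12, adjusted p = 0.0162), the only member called there, and alcohol minus isocaloric was -0.23 (SE 0.10, adjusted p = 0.183). The difference from control was -0.74 (SE 0.15) in naive and -0.77 (SE 0.15) in trained arrays. Over the 32 alternative settings the alcohol minus control difference stayed called, between -0.87 and -0.68. The isocaloric call was lost without either isocaloric naive array, control naive 2 or control trained 2 (adjusted p up to 0.112).

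The isoforms Rab5a and Rab5b, which share the early endosome with Rab5c, did not follow it in their first probe sets. Rab5a was at 7.54 and 7.87 in control naive, 7.51 and 7.76 in control trained, 7.61 to 7.91 (median 7.73) in isocaloric and 7.63 to 8.0 (median 7.86) in alcohol arrays. The 3 ranges overlap, and alcohol minus control was 0.17 (SE 0.09, adjusted p = 0.178). Rab5b was at 8.72 and 8.75 in control naive, 8.92 and 9.02 in control trained, 8.80 to 9.07 (median 8.85) in isocaloric and 8.70 to 8.92 (median 8.77) in alcohol arrays, a difference of -0.05 from control (SE 0.05, adjusted p = 0.534). The further probe set of each gave other values, described below.

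Rab11b, a GTPase of the recycling endosome that returns receptors to the surface, was higher with alcohol than with either other diet. Its control levels were 9.31 and 8.86 in naive and 9.22 in both trained arrays. The isocaloric arrays lay between 9.18 and 9.57 (median 9.28) and the alcohol arrays between 9.51 and 9.79 (median 9.62). Every alcohol array was above every control array, and 1 isocaloric array, at 9.57, reached into the alcohol range. Alcohol minus control was 0.48 (SE 0.08, adjusted p = 0.00115, 1.39-fold) and alcohol minus isocaloric 0.34 (SE 0.08, adjusted p = 0.0229, 1.27-fold). Alcohol minus isocaloric was 0.47 (SE 0.12) in naive and 0.22 (SE 0.10) in trained arrays, and the interaction of alcohol with training for this gene was not called. The call against isocaloric was lost without alcohol naive 3 (adjusted p = 0.052) or either isocaloric naive array (adjusted p up to 0.139), and with the mean of all its probe sets (0.18, adjusted p = 0.148). Its paralog Rab11a, of the same compartment, showed -0.09 against control (SE 0.06, adjusted p = 0.367) and -0.02 against isocaloric (SE 0.06, adjusted p = 0.858).

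Rab35, which acts in fast recycling, was the third called member of this role. It was at 6.73 and 6.80 in control naive, 6.85 and 6.88 in control trained, 6.53 to 6.86 (median 6.65) in isocaloric and 6.20 to 6.82 (median 6.52) in alcohol arrays. The ranges overlap, and the alcohol minus control difference of -0.30 (SE 0.10, adjusted p = 0.0483) lost its call when any of 14 of the 18 arrays was left out. Rab4a, of rapid recycling, and Rab14, of traffic between Golgi and endosomes, were not called in any comparison, with alcohol minus control at 0.07 (SE 0.07) and 0.08 (SE 0.14).

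**Figure D2:**
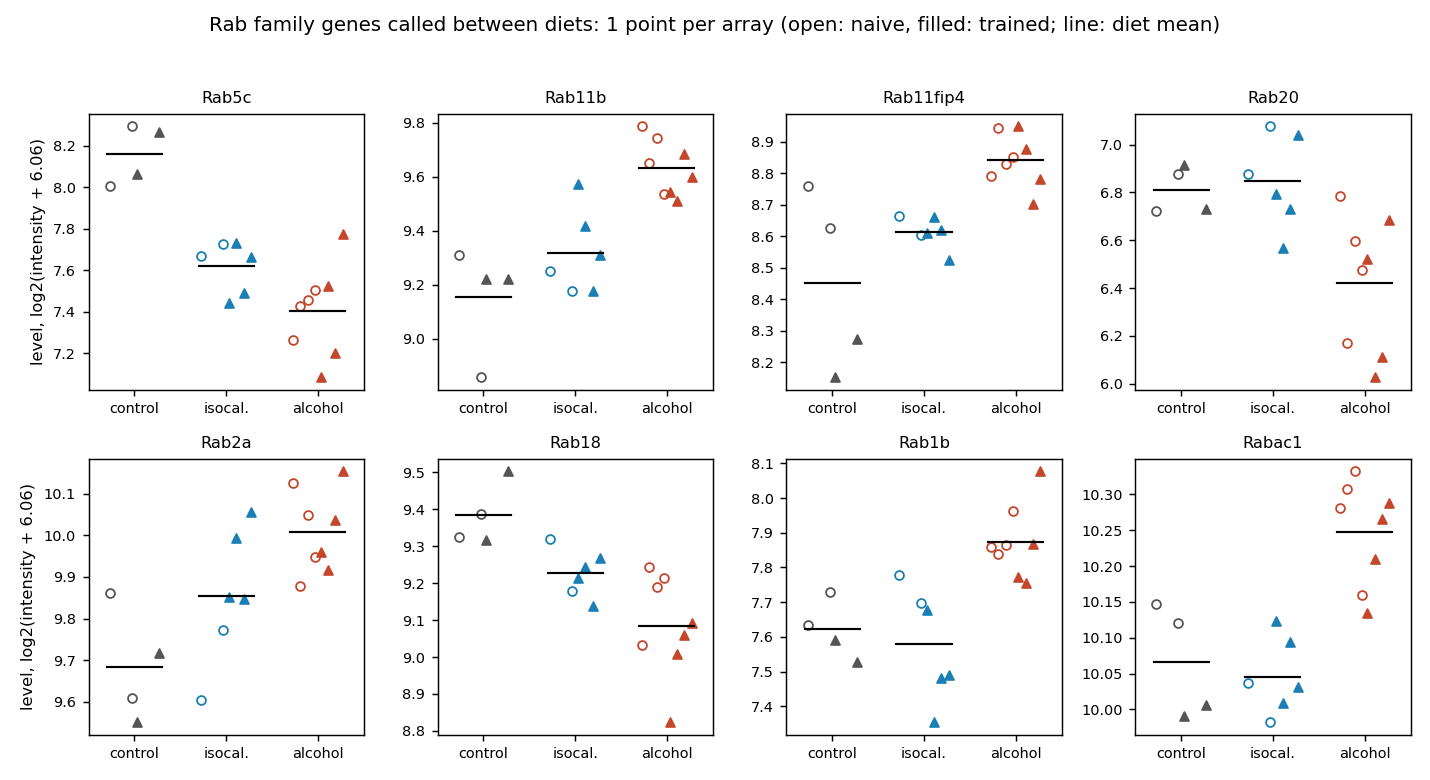
Level of 8 called members (y axis, log2 of intensity + 6.06, scaled per gene) on each array by diet (x axis), open symbols naive, filled symbols trained, line the mean of the diet. Rab5c is high on the 4 control arrays, Rab11b, Rab11fip4, Rab1b and Rabac1 are high on the 8 alcohol arrays, and Rab20 is spread from 6.03 to 6.78 with alcohol.

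Of the 8 tested genes of the late endosome, the lysosome and related organelles, 1 was called (12.5%), against both other diets. The backgrounds were 19.9% against control and 3.06% against isocaloric. Rab20, a GTPase of endosome and phagosome maturation, was at 6.72 and 6.88 in control naive, 6.92 and 6.73 in control trained, 6.57 to 7.08 (median 6.83) in isocaloric and 6.03 to 6.78 (median 6.50) in alcohol arrays. The alcohol arrays overlapped both other diets but had the lower median. Alcohol minus isocaloric was -0.46 (SE 0.12, adjusted p = 0.0478) and alcohol minus control -0.39 (SE 0.13, adjusted p = 0.0475), each lost when any of 12 of the 18 arrays was left out. Rab7a, which takes cargo from late endosomes to lysosomes, was at 10.12 and 9.97 in control naive, 10.04 and 10.03 in control trained, 9.93 to 10.08 (median 9.99) in isocaloric and 10.01 to 10.19 (median 10.07) in alcohol arrays. Those ranges overlap, and its differences were 0.04 (SE 0.05) from control and 0.09 (SE 0.05) from isocaloric, neither called.

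Genes of traffic between the endoplasmic reticulum and the Golgi held 5 of the 11 members called between alcohol and control. These were 5 of 8 tested (62.5%, background 19.9%). Roles were chosen with earlier results of these data known, so this share is no test of the role. The 5 genes split in direction. Rab1b and Rab2a were higher, and Rab1a, Rab2b and Rab18 lower. Rab1a and Rab1b both guide vesicles from the endoplasmic reticulum to the Golgi. Rab1a was at 10.02 and 10.33 in control naive, 10.54 and 10.53 in control trained, 10.11 to 10.35 (median 10.21) in isocaloric and 10.04 to 10.19 (median 10.11) in alcohol arrays, with control naive 1 below every alcohol array. Rab1b was at 7.64 and 7.73 in control naive, 7.59 and 7.53 in control trained, 7.35 to 7.78 (median 7.58) in isocaloric and 7.76 to 8.08 (median 7.86) in alcohol arrays, which did not overlap the control arrays and touched the isocaloric ones at 1 array. Alcohol minus control was -0.25 for Rab1a (SE 0.06, adjusted p = 0.0064) and 0.25 for Rab1b (SE 0.07, adjusted p = 0.0243).

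For Rab1a the difference from control was -0.47 (SE 0.08) among trained and -0.02 (SE 0.08) among naive arrays. Whether these differ was not tested. Its call was lost without control naive 2 (adjusted p = 0.0504). Rab1b was also higher with alcohol than with isocaloric, by 0.26 (SE 0.07, adjusted p = 0.0473), a call lost when any of 13 of the 18 arrays was left out. Its call against control was lost without control naive 2 or either control trained array (adjusted p up to 0.0900).

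Rab2a and Rab2b, paralogs that act between the endoplasmic reticulum and the Golgi, also moved in opposite directions. Rab2a was at 9.86 and 9.61 in control naive, 9.55 and 9.72 in control trained, 9.60 to 10.06 (median 9.85) in isocaloric and 9.88 to 10.15 (mean 10.01) in alcohol arrays, a rise over control of 0.32 (SE 0.07, adjusted p = 0.00524). Rab2b was at 8.38 and 8.35 in control naive, 8.50 and 8.47 in control trained, 8.13 to 8.39 (median 8.29) in isocaloric and 8.11 to 8.33 (median 8.25) in alcohol arrays. Alcohol minus control was -0.19 for it (SE 0.06, adjusted p = 0.0326). That call was lost without alcohol naive 1, control naive 2 or either control trained array, and with the mean of all its probe sets. Of 32 alternative settings 10 lost it, with values from -0.22 to -0.16 over all 32. In both genes the alcohol and control arrays did not overlap.

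Rab18, of the endoplasmic reticulum and lipid droplets, was at 9.33 and 9.39 in control naive, 9.32 and 9.50 in control trained, 9.14 to 9.32 (median 9.23) in isocaloric and 8.82 to 9.24 (median 9.08) in alcohol arrays. All alcohol arrays lay below all control arrays, and the isocaloric arrays overlapped both. The difference from control was -0.30 (SE 0.06, adjusted p = 0.00439) and kept its call in all 32 alternative settings, between -0.38 and -0.25. Rab6a and Rab6b, of traffic within and from the Golgi, were not called, at 0.01 (SE 0.06) and 0.11 (SE 0.07) over control. Without control naive 1 the Rab6b difference from control was 0.23, in a fit that leaves a lone control naive array. More probe sets of all kinds were called in that fit.

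Alcohol and control arrays did not overlap in 6 of 47 members (12.8%), Rab5c, Rab11b, Rab18, Rab1b, Rab2a and Rab2b, where 6.38% of all tested probe sets did not overlap. Between alcohol and isocaloric these were 2 of 47 (4.26%), Rab11fip4 and Rabac1, with a background of 1.28%. Between isocaloric and control it was Rab5c alone, 2.13% of members beside 5.85% of all probe sets.

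None of the 7 tested genes of exocytosis and delivery to the surface was called in any comparison. The backgrounds were 19.9% for alcohol minus control, 3.06% for alcohol minus isocaloric and 7.05% for isocaloric minus control. Alcohol minus control was positive in 6 and negative in 1 of them, with a median of 0.06 and a highest value of 0.36 in Rab3d (SE 0.14, adjusted p = 0.083), a relative of the synaptic vesicle Rab. Rab8a and Rab10, which carry new membrane to the dendrite and axon surface, differed from control by 0.01 (SE 0.08) and -0.00 (SE 0.06). Rab3c and Rab27b, of secretory vesicles, lay under the filter on low values. With no filter, Rab27b was at -0.38 against control (SE 0.16, adjusted p = 0.154) and Rab3c at 0.05 (SE 0.15, adjusted p = 0.89), and none of the 10 dim genes was called in any comparison (lowest adjusted p 0.122).

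Regulators and effectors supplied 2 members that were called against both other diets. These were 1 of 4 tested regulators and 1 of 5 tested effectors, with backgrounds of 19.9% against control and 3.06% against isocaloric. Rabac1, also known as PRA1, is a membrane protein that helps to place prenylated Rabs on membranes. It was at 10.15 and 10.12 in control naive, 9.99 and 10.01 in control trained, 9.98 to 10.12 (median 10.03) in isocaloric and 10.13 to 10.33 (median 10.27) in alcohol arrays. The alcohol arrays did not overlap the isocaloric ones, and 1 control array reached into their range. Alcohol minus isocaloric was 0.21 (SE 0.05, adjusted p = 0.0261) and alcohol minus control 0.18 (SE 0.05, adjusted p = 0.0225). The first call was lost without alcohol trained 3, alcohol naive 3 or either isocaloric naive array, and the second without control naive 2 or either control trained array. Rabggtb, the beta subunit of the enzyme that attaches the prenyl anchor, was at -0.21 against control (SE 0.13, adjusted p = 0.266), and Rabgap1, a GTPase-activating protein, at -0.07 (SE 0.07, adjusted p = 0.521).

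Rab11fip4, an effector that links Rab11 to recycling endosomes, was at 8.76 and 8.63 in control naive, 8.15 and 8.27 in control trained, 8.52 to 8.66 (median 8.61) in isocaloric and 8.70 to 8.95 (median 8.84) in alcohol arrays. Every alcohol array lay above every isocaloric array, while control naive 1 reached into the alcohol range and both control trained arrays lay below all others. Alcohol minus control was 0.39 (SE 0.06, adjusted p = 0.000541) and stayed called in all 32 alternatives, from 0.35 to 0.45. Alcohol minus isocaloric was 0.22 (SE 0.06, adjusted p = 0.0375), lost when any of 9 of the 18 arrays was left out. The difference from control was 0.62 (SE 0.09) in trained and 0.16 (SE 0.09) in naive arrays, and the difference from isocaloric 0.22 in each (SE 0.07 and 0.09). Rabep1, the Rab5 effector rabaptin, was at -0.15 against control (SE 0.08, adjusted p = 0.164) in its first probe set.

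After Rab5c, the smallest p-values between isocaloric and control belonged to Rab2b at -0.18 (SE 0.06, adjusted p = 0.0885), Rab5if, named for its interaction with Rab5, at -0.23 (SE 0.09, adjusted p = 0.0973), Rab8b at 0.25 (SE 0.10, adjusted p = 0.113) and Rab11fip4 at 0.17 (SE 0.07, adjusted p = 0.123). None of these passed the threshold. Centring each array on its median log2 value moved the median of all tested probe sets for isocaloric minus control from 0.02 to -0.09. Under it 9 members were called there, all lower. The split became 5 higher and 0 lower for alcohol minus isocaloric and 3 higher and 6 lower for alcohol minus control. Over all 9520 probe sets the same centring called 1216 for isocaloric minus control (232 higher, 984 lower). It called 638 for alcohol minus isocaloric (565 higher, 73 lower) and 1797 for alcohol minus control (834 higher, 963 lower).

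Further probe sets of the same genes often differed from the first. Of 18 that passed the filter, 10 were called between alcohol and control (background 19.9%), 7 higher and 3 lower, and 10 had the sign opposite to the first probe set of the gene. Between alcohol and isocaloric 12 of 18 had the opposite sign and 1 was called (background 3.06%), between isocaloric and control 7 and 2 (background 7.05%), and between trained and naive 6 and 0. These probe sets were chosen by neither size nor direction of change. The share of opposite signs among other genes with several probe sets was not computed. Some first probe sets changed little, such as Rab10 at -0.00 and Rab6a at 0.01 against control, and there a sign says little. Probe sequences were not used here, so transcript ends, splice forms and signal from near-identical family members cannot be told apart.

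The 4 probe sets with the firmest calls of this kind belong to Rab5a, Rab5b, Rab6a and Rab7a. The second Rab5a probe set (1388800_at) was at 7.49 and 8.47 in control naive, 8.13 and 8.27 in control trained, 7.64 to 8.08 (median 7.76) in isocaloric and 6.91 to 7.74 (median 7.49) in alcohol arrays. Apart from control naive 1, all control arrays lay above the other diets. Its alcohol minus control difference was -0.68 (SE 0.15, adjusted p = 0.0041), where the first probe set gave 0.17. It was -0.93 without control naive 1 and -0.44 without control naive 2 (adjusted p = 0.0449). Between alcohol and isocaloric it was -0.43 (SE 0.13, adjusted p = 0.0761).

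The second Rab5b probe set (1399153_at) was at 8.34 and 7.96 in control naive, 7.84 and 8.05 in control trained, 7.88 to 8.41 (median 8.16) in isocaloric and 8.47 to 8.88 (median 8.57) in alcohol arrays. All 8 alcohol arrays lay above all 10 others. The differences were 0.55 from control (SE 0.10, adjusted p = 0.00137) and 0.44 from isocaloric (SE 0.09, adjusted p = 0.0166), and the latter was lost without either isocaloric naive array (adjusted p up to 0.0971). The mean of both Rab5b probe sets was 0.25 higher with alcohol than with control (adjusted p = 0.0122), the reverse of the sign of the first probe set.

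The second Rab6a probe set (1371103_at) was at 9.04 and 8.68 in control naive, 8.53 and 8.72 in control trained, 9.13 to 9.35 (median 9.24) in isocaloric and 9.19 to 9.43 (median 9.30) in alcohol arrays. All control arrays lay below all others. It was 0.57 higher than control with alcohol (SE 0.07, adjusted p = 7.4e-05) and 0.50 with the isocaloric diet (SE 0.08, adjusted p = 0.00153). The second Rab7a probe set (1398838_at) was at 8.49 and 8.35 in control naive, 8.30 and 8.19 in control trained, 8.36 to 8.65 (median 8.50) in isocaloric and 8.60 to 8.91 (median 8.65) in alcohol arrays, with alcohol 0.35 over control (SE 0.07, adjusted p = 0.00248). The calls of these 4 probe sets against control held in each of their 31 alternative settings.

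**Figure D3:**
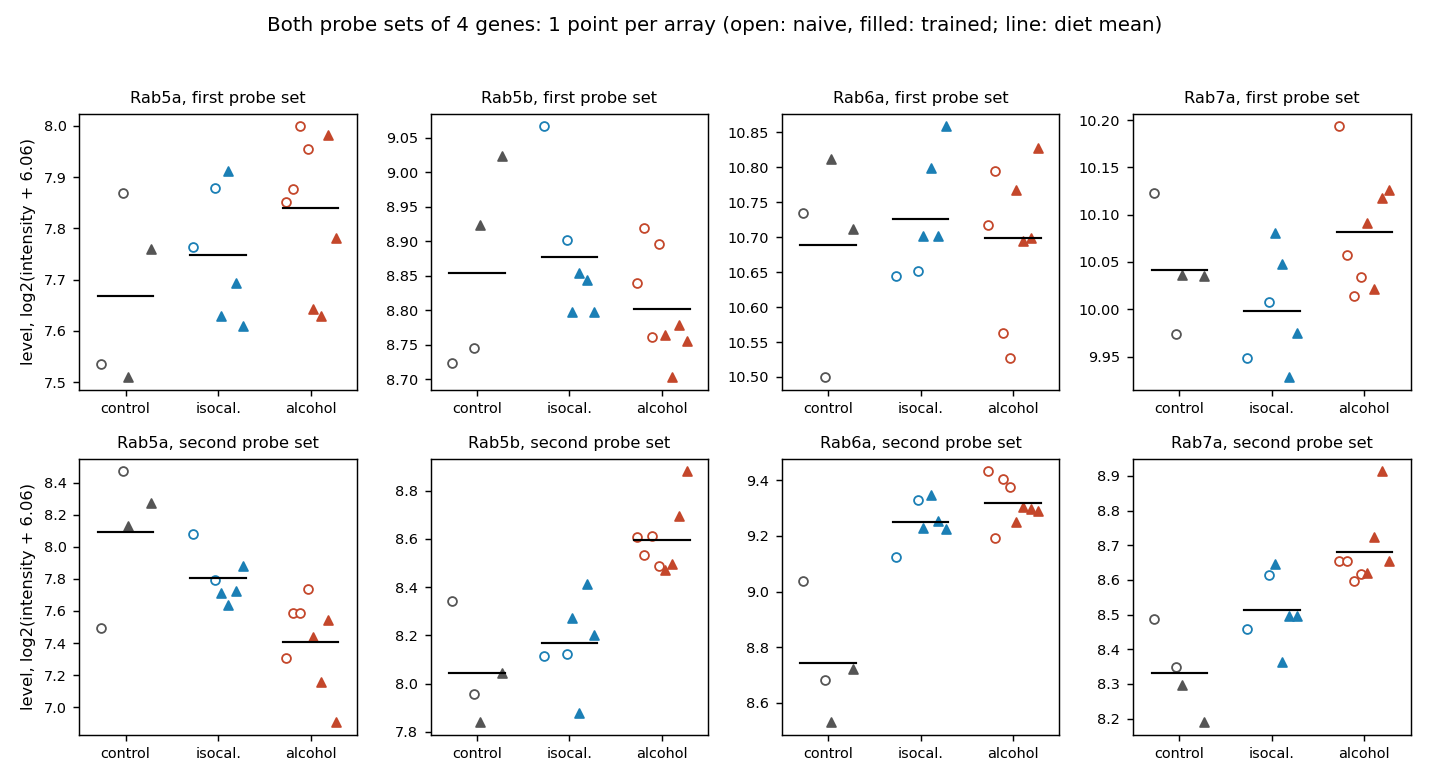
Level (y axis, log2 of intensity + 6.06, scaled per panel) of the first (upper row) and second (lower row) probe sets of Rab5a, Rab5b, Rab6a and Rab7a on each array by diet (x axis), open symbols naive, filled symbols trained, line the mean of the diet. Diets overlap in the upper row, and in the lower row the 8 alcohol arrays of Rab5b lie above the 10 others.

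Of the other called probe sets, 1 of Rab11b was higher with alcohol than with control, by 0.25 (SE 0.09, adjusted p = 0.049), the direction of the first probe set, but differed from isocaloric by only 0.01 (SE 0.08). A Rab31 probe set was higher by 0.59 (SE 0.16, adjusted p = 0.0182) and a Rab15 probe set by 0.32 (SE 0.11, adjusted p = 0.0434), and a Rab11a probe set was lower by 0.28 on the log2 scale (-0.28, SE 0.09, adjusted p = 0.0439). The Rab15 probe set was also 0.41 higher with isocaloric than with control (SE 0.12, adjusted p = 0.0413). Rabep1 had further probe sets in both directions, at 0.23 (SE 0.07, adjusted p = 0.0326) and -0.29 (SE 0.08, adjusted p = 0.0137). Without control naive 2 the Rab11a value was -0.17 and the Rab11b value 0.14. The calls of the Rab11a, Rab11b and Rab15 probe sets against control were lost when any of 11, 12 and 14 of the 18 arrays was left out, that of the higher Rabep1 probe set with any of 6, and that of the lower without control naive 2 or control trained 1. The Rab31 call was lost without control naive 1 or either control trained array, and the isocaloric call of Rab15 with any of 9 arrays.

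**Figure D4:**
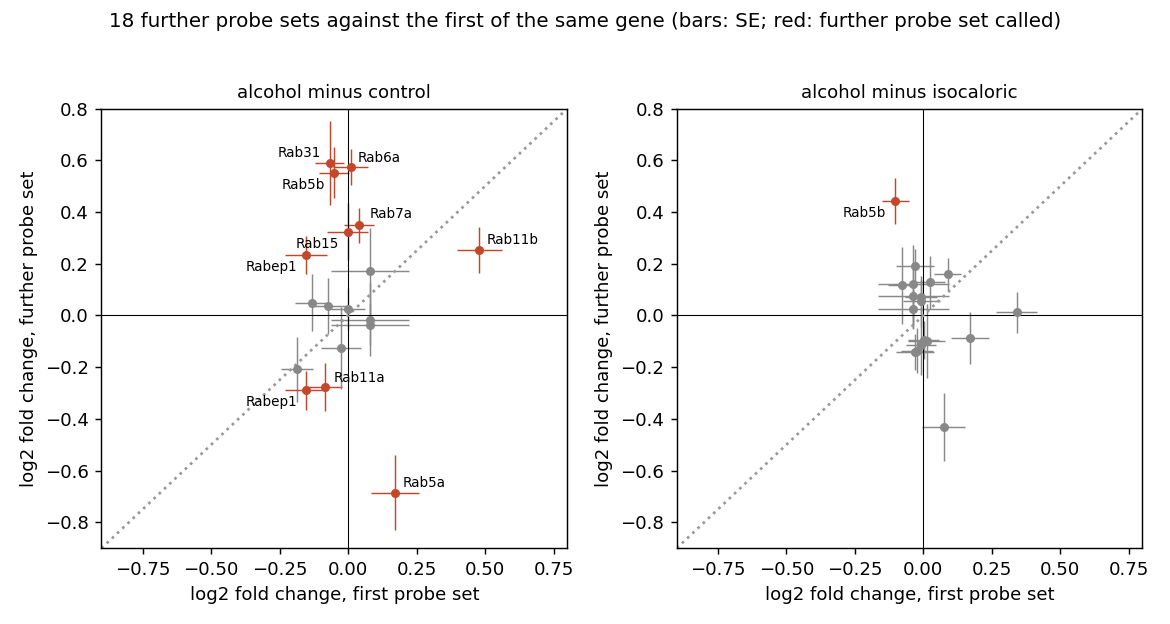
Log2 fold change of the 18 further probe sets (y axis) against that of the first probe set of the same gene (x axis), bars SE, red where the further probe set was called, dotted line equal change. Against control, Rab5a lies at -0.68 on the y axis and 0.17 on the x axis, and Rab5b and Rab6a above 0.5 on the y axis with first probe sets near 0.

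Training left no called change in the family. Trained and naive arrays, averaged over the 3 diets, differed in 0 of 47 members by limma (4 at an unadjusted p under 0.05), beside 1 of 9520 probe sets, 0.0105%. The median of the members was -0.01, beside -0.00 for all probe sets, and 0 calls were made in each alternative setting. The smallest p belonged to Rab11fip4, with trained arrays from 8.15 to 8.95 (median 8.64) and naive arrays from 8.60 to 8.94 (median 8.77), a difference of -0.18 (SE 0.05, adjusted p = 0.756). Within diets that difference was -0.48 (SE 0.10) with control, -0.03 (SE 0.09) with isocaloric and -0.03 (SE 0.07) with alcohol, the largest value being that of the 4 control arrays. Rab28, a GTPase of cilia, followed at 0.12 (SE 0.05, adjusted p = 0.8), with Rab6a at 0.12 (SE 0.05, adjusted p = 0.809), Rab40c, part of a ubiquitin ligase, at -0.26 (SE 0.12, adjusted p = 0.828) and Rab1b at -0.13 (SE 0.06, adjusted p = 0.832). All 10 trained arrays of Rab6a, from 10.69 to 10.86, lay above the mean of the naive arrays, which ran from 10.50 to 10.79. Rab6a was picked for its small p, so this follows in part from the choice. The second Rab6a probe set went the other way, with means of 9.14 in trained and 9.20 in naive arrays. Its training difference was -0.07 with alcohol, -0.23 with control and 0.04 with isocaloric.

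Whether training acted differently with alcohol than with the isocaloric diet was tested as an interaction, and 0 of 47 members were called by limma (0 at an unadjusted p under 0.05), beside 0 of 9520 probe sets (0%), of which 401 had an unadjusted p under 0.05. The smallest p-values were those of Rab10 at 0.23 (SE 0.11), Rab3gap2, a subunit of the complex that regulates Rab3 and Rab18, at 0.37 (SE 0.18), and Rab13, of vesicle delivery to cell junctions, at 0.38 (SE 0.20), each with an adjusted p of 1.00. In all 3 the training difference was above 0 with alcohol (0.15, 0.19 and 0.24) and below 0 with isocaloric (-0.08, -0.17 and -0.14). The interaction by which they were picked is the first value minus the second, so opposite signs follow in part from the choice.

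**Figure D5:**
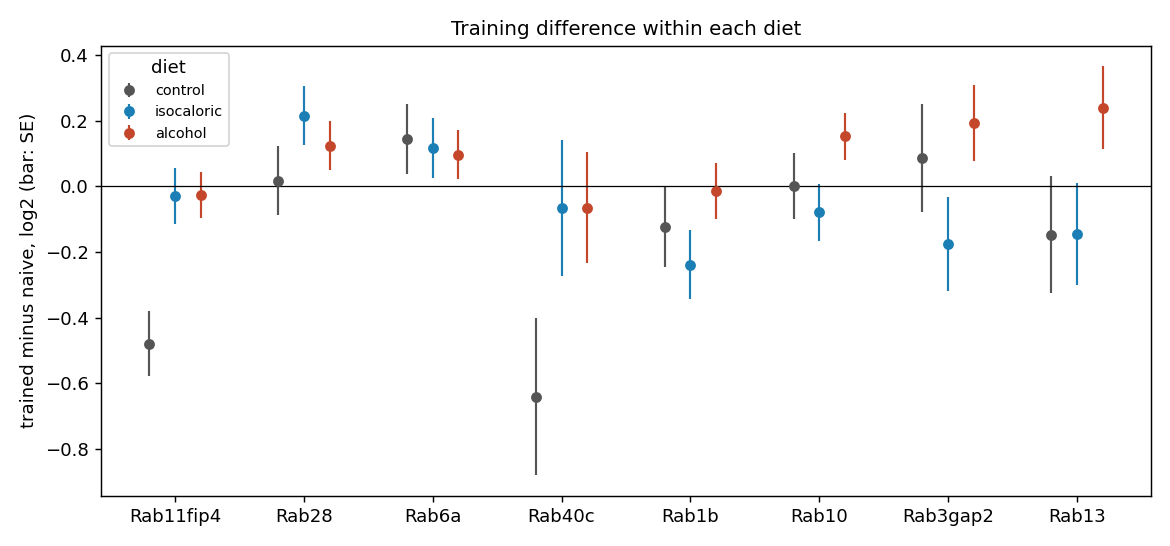
Trained minus naive log2 difference (y axis, bars are SE) within each diet (colours) of 8 members (x axis), picked for the smallest p for training or for the interaction. Rab11fip4 and Rab40c are lowest with the control diet, at -0.48 and -0.64, and Rab10, Rab3gap2 and Rab13 are above 0 with alcohol and below 0 with isocaloric.

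Other genes of the Rab cycle were followed through 4 lists of exchange factors, GTPase-activating proteins of the TBC family, escort and recycling factors, and effectors and tethers. Of 177 listed genes 113 were measured and 92 tested. Between alcohol and control 8 of 92 rose and 7 fell (16.3% called, background 19.9%). Madd, an exchange factor of the Rab3 and Rab27 GTPases, was higher by 0.65 (SE 0.11, adjusted p = 0.0011), the Golgi tether Golgb1, or giantin, by 0.50 (SE 0.12, adjusted p = 0.0081) and the exchange factor Sbf1 by 0.35 (SE 0.09, adjusted p = 0.0153). Exoc7 (0.34), Tbc1d10b (0.31), Rin1 (0.27), Rilpl1 (0.27) and Sgsm3 (0.27) also rose. The effector Rilpl2 was lower, at -0.59 (SE 0.13, adjusted p = 0.0054), as were Trappc4 (-0.31), Vps41 (-0.28), Rin2 (-0.28), Exoc3 (-0.27), Trappc12 (-0.26) and Ehd1 (-0.21). By list, 6 of 25 exchange factors, 2 of 13 TBC proteins, 7 of 49 effectors and tethers and 0 of 5 escort factors were called.

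Between alcohol and isocaloric, Sgsm3, a TBC-domain protein, rose by 0.32 (SE 0.08, adjusted p = 0.0424), and Rims1, the Rab3 effector of the active zone, and Dennd2b, an exchange factor, fell, at -0.34 (SE 0.09, adjusted p = 0.0453) and -0.32 (SE 0.08, adjusted p = 0.0391). Between isocaloric and control, Madd (0.58), Golgb1 (0.49), Dennd2b (0.35), Bicdl1 (0.33) and Tbc1d10b (0.31) rose and Vps41 (-0.28) fell. The Rab-cycle lists held 3 of 92 calls (3.26%) in the first and 6 of 92 (6.52%) in the second of these comparisons, near the backgrounds of 3.06% and 7.05%. No gene of the lists was called between trained and naive arrays by limma, the smallest p-values being those of the exchange factor Gapvd1 at 0.26 (SE 0.08, adjusted p = 0.756) and the TRAPP subunits Trappc3 at -0.12 (SE 0.04) and Trappc12 at -0.18 (SE 0.06), both with an adjusted p of 0.758. Without control naive 1 there was 1 such call. Under other settings the 3 calls between alcohol and isocaloric became 0 with no filter on low values, with the Gapdh ratio as a covariate and without the 4 arrays high in Ttr, and 9 with array weights. The 15 calls against control became 9 with no filter or with the groups compared alone, 7 with array weights and 5 without the arrays high in Ttr. The 6 calls between isocaloric and control became 3 with array weights, 1 with the groups compared alone and 0 without the arrays high in Ttr. With 1 array left out, the count against control (15 in all arrays) was 8 without alcohol naive 3 and 9 without alcohol trained 2 or alcohol naive 1. Over all probe sets, the 1895 calls became 1511, 1709 and 1653 in these 3 fits. The count of the lists was lower still without control naive 2 or control trained 1 and higher without control naive 1. Calls over all probe sets also fell in the first 2 of these and rose in the last. Between alcohol and isocaloric the count ran from 0 to 5, with 2 or 3 without alcohol trained 1 or 4, 5 without alcohol naive 4 or either control naive array, and 0 or 1 without any other single array. Between isocaloric and control it was higher without control naive 1 and lower without any other single control array or either isocaloric naive array. The number called over all probe sets moved in the same directions in these fits, each of which leaves a lone array in 1 group.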

How the data were processed

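Total RNA of 18 rat hippocampus samples was measured on Affymetrix arrays. The deposited values are linear intensities, 1 for each probe set of an array. The submitters' processing notes name MAS5 for control naive 1 and control trained 2; for the rest, no summary algorithm is given in the labels or headers. The 2% trimmed mean is close to 150 on every array, so a change of total RNA cannot be seen. Samples were grouped by their descriptions, with 1 misspelled diet read as isocaloric.

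The constant 6.06, the 10th percentile of all intensities, was added before taking log2. Affymetrix controls and probe sets with a mean under the 40th percentile (5.78) were left out, which kept 9520 for testing. The 6 group means were fitted with limma 3.58.1 (R 4.3.3; lmFit, eBayes with trend). A diet comparison is the mean of its trained and naive differences. Tests were two-sided, with Benjamini-Hochberg adjustment over all 9520 and a threshold of 0.05; a call is an adjusted p under it. The fit was tested on simulated data. Members, lists and roles were chosen with earlier results of these data known. Named are all called members, otherwise the 5 with the smallest p (3 for the interaction and for listed genes), and a fixed set of well-known members. Alternatives covered scaling, constant, filter, variance model, array weights, samples, replicate block, RNA quality, probe-set rule and leaving out each array. Python 3.11.15, numpy 2.4.6, pandas 2.3.3 and matplotlib 3.10.9 served for tables and plots. Gene symbols are those of the platform annotation; probe sets with several symbols were not named.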

Additional observations from a re-analysis of the deposited data

Results flagged for a closer look

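In 48 sets of arrays, those of 16 named members in the groups of 4, 1 array stood apart from the rest of its group. Rab5if was at 8.43 in alcohol trained 4, the lowest of that group, where the other arrays lay between 8.69 and 8.71 (gap over range 0.954). Chance flags about 1 in 20 such sets. Alcohol trained 4 is also among the 4 arrays high in Ttr.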

How the results depend on the processing

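Counts of called members between diets depended on the setting, while training and the interaction gave 0 calls in each alternative. Alcohol minus isocaloric, 5 calls, gave 3 with no filter on low values, 2 by eBayes without trend, 8 with array weights (5 higher, 3 lower), 0 with the Gapdh 3′ to 5′ ratio as a covariate and 0 without the 4 arrays high in Ttr. The log2 of the Gapdh ratio was 0.0941 to 0.477 on alcohol, 0.0637 to 0.181 on isocaloric and 0.191 to 0.358 on control arrays. Over all tested probe sets, the 291 calls of alcohol minus isocaloric became 216 with no filter and 269 without trend. They became 1207 with array weights and 25 with the Gapdh covariate. The 1895 calls of alcohol minus control over all tested probe sets became 979 with array weights and 1285 with the groups compared alone. Alcohol minus control, 11 calls, gave 6 with array weights, 7 with the groups compared alone and 4 without the arrays high in Ttr (2 higher, 2 lower). Its split of 5 higher and 6 lower became 7 and 3 without the 2 arrays whose notes name MAS5, 8 and 5 with the mean of all probe sets of a gene, 5 and 4 with no filter, a stricter filter or the Gapdh covariate, and 4 and 3 with the groups compared alone. Isocaloric minus control, 1 call, gave 9 with median centring (0 higher, 9 lower) and 2 with the mean of all probe sets of a gene. Over all 9520 probe sets, median centring called 1216 there (232 higher, 984 lower), against 671 in the main fit. Over all probe sets, more were called in each of these comparisons without the 2 arrays whose notes name MAS5. Member calls did not rise there for alcohol minus control or for alcohol minus isocaloric. Without the arrays high in Ttr fewer were called, among members as over all probe sets. Both fits leave a lone array in a control group. With 1 array left out the counts ran from 0 to 6, 5 to 14 and 0 to 7 in these 3 comparisons. Rab5b against control reversed from -0.05 to 0.25 with the mean of its probe sets, whose second probe set was higher. The cause of the other changes was not tested.

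The labels do not say what a shared replicate number in the titles means. Of 36 pairs of arrays with the same number, 4 had deviations that correlated over 0.1 (median -0.03, range -0.23 to 0.13). This cannot exclude a pairing, because deviations within such small groups are not independent of each other. With the number as a replicate block the counts were 3, 8 and 1 calls, against 5, 11 and 1, and 0 for training.

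The control groups and the isocaloric naive group hold 2 arrays each, and their number limits the precision. A fit without 1 of them leaves a lone array that is assumed to vary like the other groups.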
